A study of Homo sapiens with 6 samples.

Results

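The TRIM (tripartite motif) family was examined in U87, an established cell line from a human glioblastoma, by RNA sequencing, as the protein-coding genes whose symbol is TRIM followed by a digit. The deposited table held 75 such genes among 19136 protein-coding genes, and each gene was represented by its RefSeq accession with the highest mean abundance. The comparison was between 3 libraries labelled EGFR+vIII TLR2 KO and 3 libraries labelled EGFR+vIII. Both groups carried EGFR, the epidermal growth factor receptor, and vIII, its constitutively active deletion mutant, and the groups differed by a knockout of TLR2, a cell surface receptor of innate immunity. Whether the knockout line was 1 clone or a pool, and whether replicate libraries were grown as separate cultures, is not stated in the labels. The p-values therefore describe variation among these 6 libraries, possibly technical.

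TRIM proteins share an N-terminal arrangement of a RING domain, B-box zinc fingers and a coiled coil. The RING domain recruits an E2 conjugating enzyme that carries ubiquitin, and the C-terminal domain, by which the family is divided into classes, binds the substrate. Many members act in innate immunity, where they modify RNA sensors, adaptors of Toll-like receptors or viral proteins, and the genes of several of them are induced by interferon. Other members are transcriptional corepressors, cytoskeletal proteins of neurons or proteins of the endoplasmic reticulum membrane.

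The table gives no value per library. For each accession it lists the base mean, which is the mean over the 6 libraries of reads divided by a library size factor, and a log2 fold change with its standard error (SE), taken as knockout relative to EGFR+vIII because the table names its groups in that order. The knocked-out gene gives no check of the order, since TLR2 is at 0 in each of its 8 accessions in the authors' deposited table, and the opposite order would reverse every direction below. The base means sum to 11240272 normalized reads, and the size factors lay between 0.928 and 1.07. Of 8 glioma and astrocyte markers, 3 reached a base mean of 100 in the authors' deposited table, with VIM at 126476, while GFAP, AQP4 and S100B were listed at 0. Of these markers, CHI3L1 rose by 3.01 (adjusted p = 3.35e-34, SE 0.24) and NES rose by 1.01 (adjusted p = 1.15e-14, SE 0.12), while SOX2 fell by 2.45 (adjusted p = 2.64e-14, SE 0.30) and VIM fell by 0.29 (adjusted p = 0.00235, SE 0.08) in log2 units of the authors' deposited table. Their part in the TRIM results was not tested. Leucocyte markers summed to 49.6, epithelial markers to 25.4 and neuronal markers to 1.16 in the authors' deposited table, with PTPRC, CDH1 and RBFOX3 listed at 0, and endothelial markers summed to 729, with KDR at 556, PECAM1 at 159 and CDH5 at 0.539. GFAP has 4 accessions, AQP4 7, PTPRC 4, CDH1 4 and RBFOX3 3, and each marker value is that of 1 accession. A 0 therefore does not show that these genes were unexpressed, and the sums do not show that a cell type was absent.

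Of the 75 TRIM genes, 34 had at least 1 read and 41 were listed at 0. An adjusted p was given for 22 in the authors' deposited table. Among these 22, 9 were higher and 1 was lower in the knockout at an adjusted p under 0.05, which is 45.5% of the tested TRIM genes. The background over 7859 tested protein-coding genes was 27.6% called, 13.4% higher and 14.2% lower. Among the 13 TRIM genes with a base mean of at least 100, 8 were called higher and 1 lower (69.2%), beside 43.6% of all 4056 protein-coding genes at that level, 20.4% higher and 23.2% lower. In bulk RNA, a change in the number of cells that express a gene and a change in RNA per cell cannot be told apart. The median size of the log2 fold changes of the called TRIM genes was 0.41 in the authors' deposited table, and that of all called protein-coding genes was 0.61. Against a null of changes up to 1.5-fold, computed as a Wald test from the deposited fold changes and SEs, 0 of the 22 passed and 0 had an unadjusted p under 0.05, while 4.52% of protein-coding genes passed after adjustment. The deposited fold changes of genes with few reads are drawn towards 0, so for the 9 tested members below a base mean of 100 this test does not show that a change was small. With the Wald scores centred and scaled by their own spread, TRIM14 and TRIM25 kept the call, beside 10.5% of protein-coding genes.

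**Figure D1:**
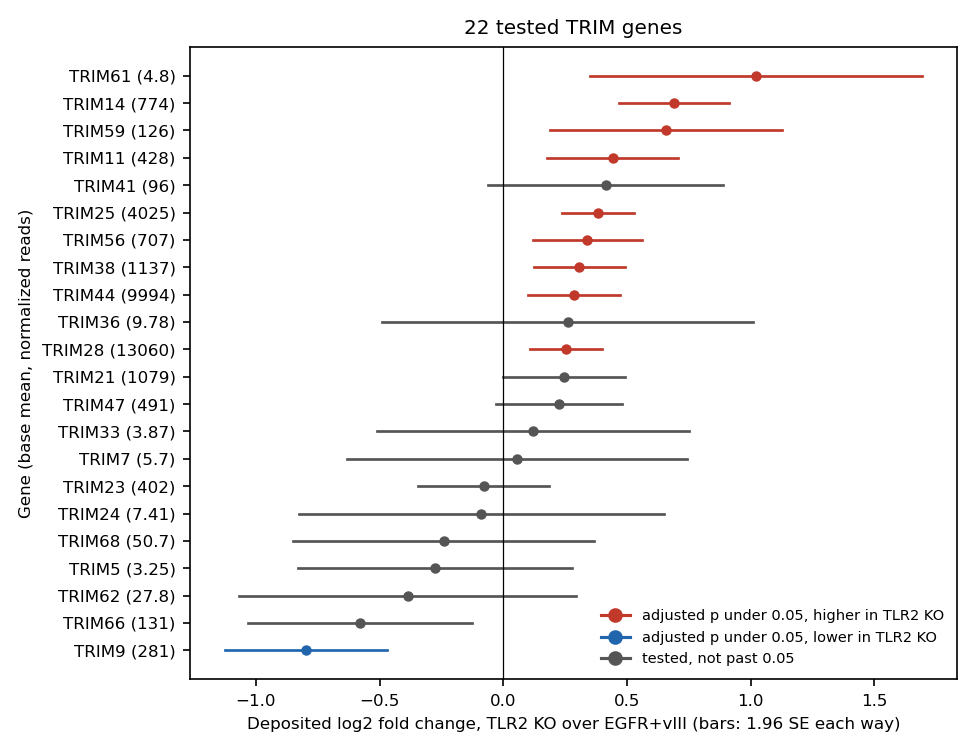
Deposited log2 fold changes of the 22 tested TRIM genes, TLR2 KO over EGFR+vIII, with bars of 1.96 SE each way and the base mean in normalized reads beside each symbol. The 9 genes in red lie above 0 and TRIM9, in blue, lies lowest at -0.80, and the widest bars belong to genes with a base mean below 100.

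The 300-base promoter windows of 4 members are shown because they hold, or lack, the core of the interferon-stimulated response element (ISRE), the sequence to which interferon-activated transcription factors bind. TRIM14 and TRIM44 are members that rose and whose windows hold an ISRE core, TRIM21 is an interferon-inducible member with 2 overlapping cores that was not called, and TRIM61 is the member with the largest fold change and no core. The sequences are from RefSeq (GRCh38.p14), 250 bases before to 50 after the annotated start of the gene, and capitals mark matches to the core, spelled GAAA, any 2 bases and GAAA, on either strand.
TRIM14, chr9:98119173-98119472, minus strand: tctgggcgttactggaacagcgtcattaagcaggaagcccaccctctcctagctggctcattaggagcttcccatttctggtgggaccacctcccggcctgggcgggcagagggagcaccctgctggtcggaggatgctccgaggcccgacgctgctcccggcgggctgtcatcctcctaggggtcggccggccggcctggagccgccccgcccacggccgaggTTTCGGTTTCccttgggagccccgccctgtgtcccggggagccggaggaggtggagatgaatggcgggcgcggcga
TRIM44, chr11:35662525-35662824, plus strand: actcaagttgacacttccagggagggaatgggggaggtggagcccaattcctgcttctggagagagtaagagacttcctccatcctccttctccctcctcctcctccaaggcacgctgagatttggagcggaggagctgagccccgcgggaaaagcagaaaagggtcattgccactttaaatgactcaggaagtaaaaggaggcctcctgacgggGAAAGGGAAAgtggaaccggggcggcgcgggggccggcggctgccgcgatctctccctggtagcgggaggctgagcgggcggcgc
TRIM21, chr11:4393653-4393952, minus strand: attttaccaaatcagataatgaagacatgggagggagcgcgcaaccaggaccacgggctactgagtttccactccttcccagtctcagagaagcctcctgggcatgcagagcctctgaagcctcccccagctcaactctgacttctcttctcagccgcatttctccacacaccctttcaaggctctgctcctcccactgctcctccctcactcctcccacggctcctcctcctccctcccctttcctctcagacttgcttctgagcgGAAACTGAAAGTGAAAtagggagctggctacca
TRIM61, chr4:164977608-164977907, minus strand: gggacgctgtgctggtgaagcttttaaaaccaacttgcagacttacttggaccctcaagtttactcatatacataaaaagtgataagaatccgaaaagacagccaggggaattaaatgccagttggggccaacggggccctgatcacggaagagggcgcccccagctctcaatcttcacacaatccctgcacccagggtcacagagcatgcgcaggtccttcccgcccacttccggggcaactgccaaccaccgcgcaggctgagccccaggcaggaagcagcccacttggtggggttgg
The match begins 26 bases before the start in TRIM14 and 35 bases before it in TRIM44, and the 2 matches of TRIM21 begin 17 and 23 bases after it.

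Across the family, 60 members had at least 1 window and 10 of these (16.7%) held the ISRE core, counting genes with any window that matched. By window the count was 10 of 80 (12.5%), beside 1255 of 35116 windows of all genes in the table of promoters (3.57%). Among the 8 called members with a window, 2 held the core, TRIM14 and TRIM44. TRIM28 and TRIM11 had no window. Among the tested members that were not called, TRIM21 and TRIM5 held it. The core of the gamma-activated site, spelled TTC, any 3 bases and GAA, was in 15 of 80 TRIM windows (18.8%) and in 2689 of all 35116 windows (7.66%). The 15 windows include those of TRIM49 and TRIM64 copies listed at 0. By gene, this core was in 12 of 60 members with a window (20%), but in 1 of 19 tested members (5.26%) and 0 of the 8 called members. It has 9 letters and reads the same on both strands, and windows of 1 gene can overlap, so the windows are not independent. A match describes the letters in the window and was not tested for binding.

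Members with a role in RNA sensing and interferon signalling were considered first. TRIM14 (chromosome 9, 98035797 to 98119222), a mitochondrial adaptor that promotes signalling by RNA sensors and lacks a RING domain, had the smallest adjusted p of the family. Its base mean was 774 in the authors' deposited table, which with the fold change corresponds to 956 normalized reads in the knockout and 593 in EGFR+vIII cells. TRIM14 rose by 0.69 (adjusted p = 2.44e-08, SE 0.11) in log2 units of the authors' deposited table, a rise of 61.3%. The call held relative to the 20 nearest tested genes, whose median log2 fold change was -0.02. The gene span overlaps NANS, a sialic acid synthase, which also rose in the authors' deposited table (0.42, adjusted p = 8.45e-06). The strandedness of the libraries is not given in the sources used here, so reads from shared positions could not be told apart.

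TRIM25 (chromosome 17, 56887909 to 56914049), the ligase that ubiquitinates the RNA sensor RIG-I, corresponded to 4556 normalized reads in the knockout and 3494 in EGFR+vIII cells. It rose by 0.38 (adjusted p = 2.83e-06, SE 0.07) in log2 units of the authors' deposited table, or by 30.4%. Its neighbours had a median of -0.02, and TRIM25 remained called relative to them (adjusted p = 7.14e-07). The gene of its substrate RIG-I, RIGI, was at 0.07 (adjusted p = 0.654, SE 0.09) in the authors' deposited table. TRIM56 (chromosome 7, 101085481 to 101097967), a ligase that acts on STING and TLR3 signalling, corresponded to 790 normalized reads in the knockout and 624 in EGFR+vIII cells. TRIM56 rose by 0.34 (adjusted p = 0.0139, SE 0.11) in the authors' deposited table.

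TRIM38 (chromosome 6, 25962802 to 25991231) is a ligase that limits signalling by Toll-like receptors through the degradation of their adaptors. It corresponded to 1258 normalized reads in the knockout and 1016 in EGFR+vIII cells, with a log2 fold change of 0.31 (adjusted p = 0.00599, SE 0.09) in the authors' deposited table. The 20 nearest tested genes had a median log2 fold change of 0.36, and relative to them TRIM38 was at -0.05 (adjusted p = 0.769). TRIM21 (chromosome 11, 4384897 to 4393702), the cytosolic antibody receptor, had 1171 normalized reads in the knockout and 987 in EGFR+vIII cells by the same computation. Its log2 fold change of 0.25 (adjusted p = 0.156, SE 0.13) in the authors' deposited table did not pass.

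Of the 19 TRIM genes listed for an antiviral or interferon signalling role, 13 had reads and 9 were tested. Of these 9, the authors' deposited table called 5 higher and 0 lower (TRIM14, TRIM25, TRIM28, TRIM38 and TRIM56), or 55.6%. Over all tested protein-coding genes 27.6% were called, 13.4% higher. All of the 9 but TRIM41 and TRIM5 had a base mean of at least 100. At that level 43.6% of all protein-coding genes were called, 20.4% higher. Relative to 20 neighbouring genes, 3 stayed higher. The median log2 fold change of the 9 was 0.31 beside 0.02 over all tested protein-coding genes. TRIM41, which ubiquitinates viral nucleoprotein, was at 0.41 (adjusted p = 0.241, SE 0.24), and TRIM23, the member with an ARF domain, was at -0.08 (adjusted p = 0.766, SE 0.14) in the authors' deposited table.

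TRIM28 (chromosome 19, 58544064 to 58550715) is the corepressor that KRAB zinc finger proteins recruit to silence transposable elements, and it was the member with the highest level. It corresponded to 14201 normalized reads in the knockout and 11920 in EGFR+vIII cells, with a base mean of 13060 in the authors' deposited table. Divided by transcript length, its level was 4412 normalized reads per kilobase, above those of TRIM44 (771) and TRIM25 (702). TRIM28 rose by 0.25 (adjusted p = 0.00436, SE 0.07) in log2 units of the authors' deposited table, or by 19.1%. Its neighbours had a median of 0.09, and relative to them it did not pass (adjusted p = 0.0903). The other members with a PHD finger and bromodomain did not pass in the authors' deposited table: TRIM66 was at -0.58 (adjusted p = 0.0517, SE 0.23), TRIM24, a nuclear receptor cofactor, at -0.09 (adjusted p = 0.917, SE 0.38) and TRIM33, a regulator of SMAD signalling, at 0.12 (adjusted p = 0.863, SE 0.32). The span of TRIM66 overlaps RPL27A, a ribosomal protein gene with a log2 fold change of 0.27 (adjusted p = 0.00144) in the authors' deposited table.

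TRIM44 (chromosome 11, 35662775 to 35818007), a RING-less member with a zinc finger of the ubiquitin-specific protease type, corresponded to 10982 normalized reads in the knockout and 9006 in EGFR+vIII cells. TRIM44 rose by 0.29 (adjusted p = 0.0137, SE 0.09) in the authors' deposited table. TRIM11 (chromosome 1, 228393676 to 228406835), a ligase of protein quality control, corresponded to 493 normalized reads in the knockout and 363 in EGFR+vIII cells. Its log2 fold change was 0.44 (adjusted p = 0.00602, SE 0.13) in the authors' deposited table, but neighbouring genes had a median of 0.35, and relative to them TRIM11 was at 0.09 (adjusted p = 0.719). TRIM59 (chromosome 3, 160435503 to 160449786), a membrane-anchored member, corresponded to 155 normalized reads in the knockout and 98.0 in EGFR+vIII cells. It rose by 0.66 (adjusted p = 0.0292, SE 0.24) in the authors' deposited table, and the adjusted p was 0.0514 with no filter on low values. The read-through transcript TRIM59-IFT80, which overlaps it, had a base mean of 0.313.

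TRIM9 (chromosome 14, 50975266 to 51095105), a brain-enriched ligase of the COS-domain class that acts in axon branching of mouse neurons, was the member called lower. It corresponded to 205 normalized reads in the knockout and 356 in EGFR+vIII cells. TRIM9 fell by 0.80 (adjusted p = 1.79e-05, SE 0.17) in log2 units of the authors' deposited table. Its second accession, with a base mean of 46.6, was at -0.62 (adjusted p = 0.155, SE 0.31) in the authors' deposited table. Neighbouring genes had a median of 0.11, and relative to them TRIM9 remained called (adjusted p = 6.19e-07). With scaled Wald scores the adjusted p was 0.0607. TRIM36, the other tested member of the class, was at 0.26 (adjusted p = 0.719, SE 0.38) in the authors' deposited table.

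**Figure D2:**
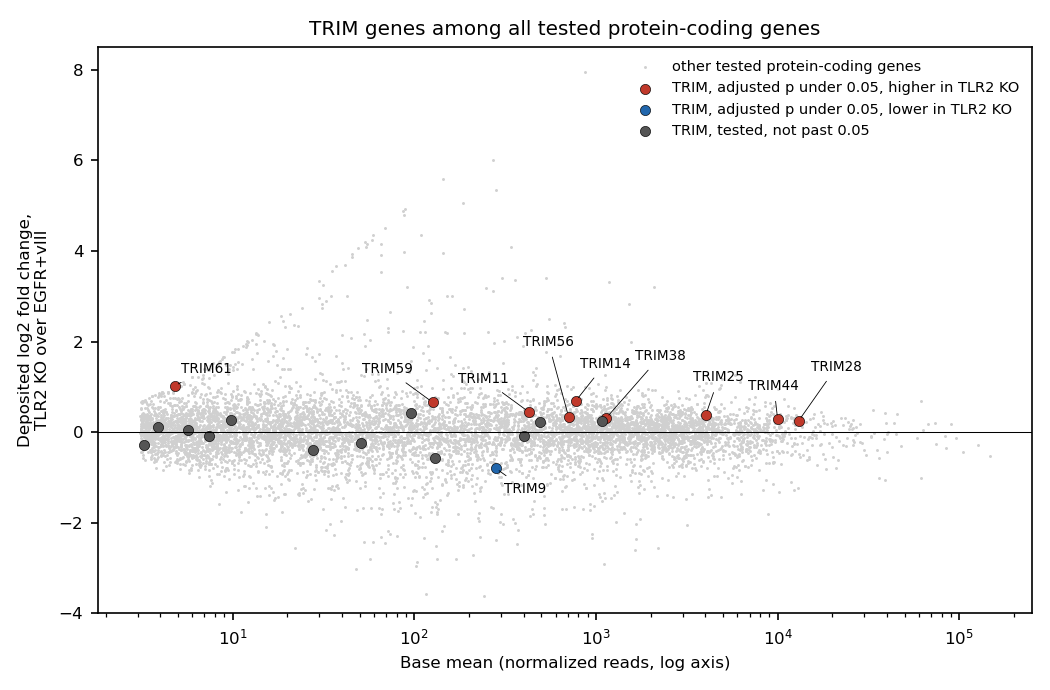
Deposited log2 fold change, TLR2 KO over EGFR+vIII, against base mean in normalized reads on a log axis, with tested TRIM genes in colour over all other tested protein-coding genes in grey. The called TRIM genes run from -0.80 for TRIM9 to 1.02 for TRIM61, and grey points reach higher and lower values than any TRIM gene.

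For accessions with few reads the base mean can be resolved into whole reads per library, because 1 read in 1 library adds a fixed amount that differs between the 6 libraries. Each library was placed on the side given by the sign of the deposited fold change of accessions with 1 read in that library, which gave 3 libraries on each side. The libraries were not matched to single labelled samples. All 18 TRIM genes below a base mean of 10 had exactly 1 solution within a tolerance of 6e-10. TRIM61 (chromosome 4, 164954446 to 164977657), a member with no C-terminal substrate-binding domain whose function is little described, had 9, 8 and 11 reads in the knockout libraries and 0, 0 and 0 reads in the EGFR+vIII libraries. The groups did not overlap, and with a floor of 3 reads over the EGFR+vIII group the ratio for TRIM61 was 9.99. This ratio takes the 28 knockout reads as exact. The deposited log2 fold change of 1.02 (adjusted p = 0.015, SE 0.34) in the authors' deposited table is a value drawn towards 0. TRIM61 passed the filter on low values through its knockout reads alone, so it had to differ, and the counts over tested members that include it are descriptions only. Among the 1500 tested protein-coding genes below a base mean of 10 with 1 solution, 54 had no read in the EGFR+vIII libraries, 39 of them called, and 6 had no read in the knockout libraries.

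TRIM5, a restriction factor that binds retroviral capsids, had 0, 0 and 4 reads in the knockout libraries and 4, 12 and 0 reads in the EGFR+vIII libraries. Of its 20 reads, 12 lay in 1 EGFR+vIII library, and its log2 fold change of -0.27 (adjusted p = 0.579, SE 0.28) in the authors' deposited table did not pass. Among the same 1500 genes, 48 had at least 60% of their reads in 1 library. TRIM24 had 5, 10 and 5 reads in the knockout libraries and 12, 5 and 8 reads in the EGFR+vIII libraries. TRIM33 had 2, 2 and 9 reads in the knockout libraries and 7, 0 and 3 reads in the EGFR+vIII libraries. In both genes the groups overlapped. The deposited log2 fold change with 1.96 SE each way ran from -0.83 to 0.65 for TRIM24 and from -0.51 to 0.75 for TRIM33. Because fold changes at few reads are drawn towards 0, these ranges do not bound the change. TRIM36 had 13, 11 and 10 reads in the knockout libraries and 6, 7 and 12 reads in the EGFR+vIII libraries. TRIM7, known to bind glycogenin, had 9, 2 and 7 reads in the knockout libraries and 14, 2 and 1 reads in the EGFR+vIII libraries, again with overlapping groups.

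The 12 members with reads but no adjusted p had between 1 and 16 reads over all libraries. TRIM4, a PRY-SPRY member, had 2, 6 and 4 reads in the knockout libraries and 2, 0 and 0 reads in the EGFR+vIII libraries, and its deposited log2 fold change was 0.39 (SE 0.29), for which the authors' deposited table lists no adjusted p. TRIM65, a ligase for the RNA sensor MDA5, had 2, 1 and 4 reads in the knockout libraries and 2, 6 and 1 reads in the EGFR+vIII libraries. TRIM3, an NHL-repeat member, had 2, 2 and 1 reads in the knockout libraries and 0, 0 and 0 reads in the EGFR+vIII libraries. TRIM2, its relative, had 3, 1 and 0 reads in the knockout libraries and 1, 0 and 3 reads in the EGFR+vIII libraries for the leading accession. TRIM29, a RING-less member, had 3, 1 and 1 reads in the knockout libraries and 0, 0 and 1 reads in the EGFR+vIII libraries. TRIM22, an interferon-inducible antiviral member, had 1 read, in a knockout library, and TRIM37, the member with a MATH domain, likewise had 1 read in a knockout library. TRIM58 had 3 reads and TRIM72 had 2, each in knockout libraries alone, while TRIM17 had 3 and TRIM6 had 2, each in EGFR+vIII libraries alone, and TRIM34 had 1 read on each side. The spans of TRIM6 and TRIM34 lie within that of TRIM5, so their reads may be shared. With a floor of 3 reads over the EGFR+vIII group, the ratio for TRIM3 was 1.78. It takes the 5 knockout reads as exact, so it is not a lower bound on the change. None of these 12 genes was tested for a difference. The reads are those of the leading accession, and TRIM37 has 13 accessions, TRIM2 9 and TRIM22 2. Such numbers do not show that these genes were nearly silent.

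**Figure D3:**
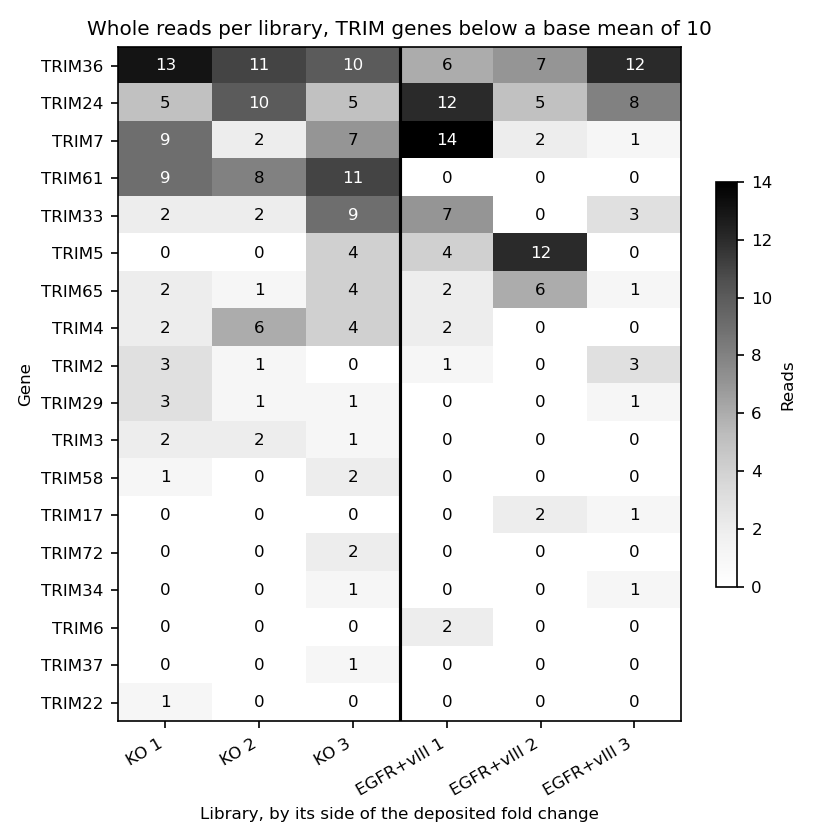
Whole reads per library for the 18 TRIM genes with a base mean below 10, with the 3 knockout libraries on the left and the 3 EGFR+vIII libraries on the right of the line, shaded by read number. TRIM61 has 9, 8 and 11 reads on the left and 0 in each library on the right, and TRIM5 has 12 of its reads in 1 EGFR+vIII library.

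Levels were then set beside the number of accessions of a gene. Among TRIM genes with 1 accession, 10 of 33 had a base mean of 100 or more (30.3%, Wilson 95% interval 17.4 to 47.3), as did 3 of 30 with 2 or 3 accessions (10%, 3.46 to 25.6) and 0 of 12 with 4 or more (up to 24.2). Over all protein-coding genes these shares were 40.8%, 10.1% and 3.20%. Listings at 0 ran otherwise: 20 of 33 TRIM genes with 1 accession were at 0 (60.6%), as were 15 of 30 with 2 or 3 and 6 of 12 with 4 or more (50% each), beside 30%, 44.7% and 47.4% of all protein-coding genes. Intervals cover counting error only. Of the 41 members listed at 0, 21 have 2 or more accessions, among them TRIM8, TRIM13, TRIM16, TRIM32 and TRIM69. These genes cannot be called unexpressed from a value of 0. Nor does a low value of the leading accession give the level of a gene with further accessions, such as TRIM24 or TRIM33. Another 10 members at 0 share their number with near-identical copies (TRIM43, TRIM49 and TRIM64 groups), between which reads can be ambiguous, and 2 are read-through transcripts (TRIM39-RPP21 and TRIM6-TRIM34).

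Listings at 0 were also viewed by position. Of 9 members on chromosome 6, the 8 between positions 28903002 and 30346858 (TRIM27, TRIM31, TRIM40, TRIM10, TRIM15, TRIM26, TRIM39 and the read-through TRIM39-RPP21), in the region of the major histocompatibility complex, were at 0. The bounds of the interval are the outermost of these 8 genes, which were chosen for being at 0. Their own listing at 0 is therefore a description only. All 26 other protein-coding genes of the same interval were also at 0, beside 402 of 966 (41.6%) on the rest of chromosome 6. TRIM38 lies outside this interval. The part that the counting of reads has in these listings was not tested, and TRIM27 and TRIM26, ligases of innate signalling, cannot be judged from this table. TRIM71, an NHL-repeat regulator of stem cells with 1 accession, was also at 0.

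**Figure D4:**
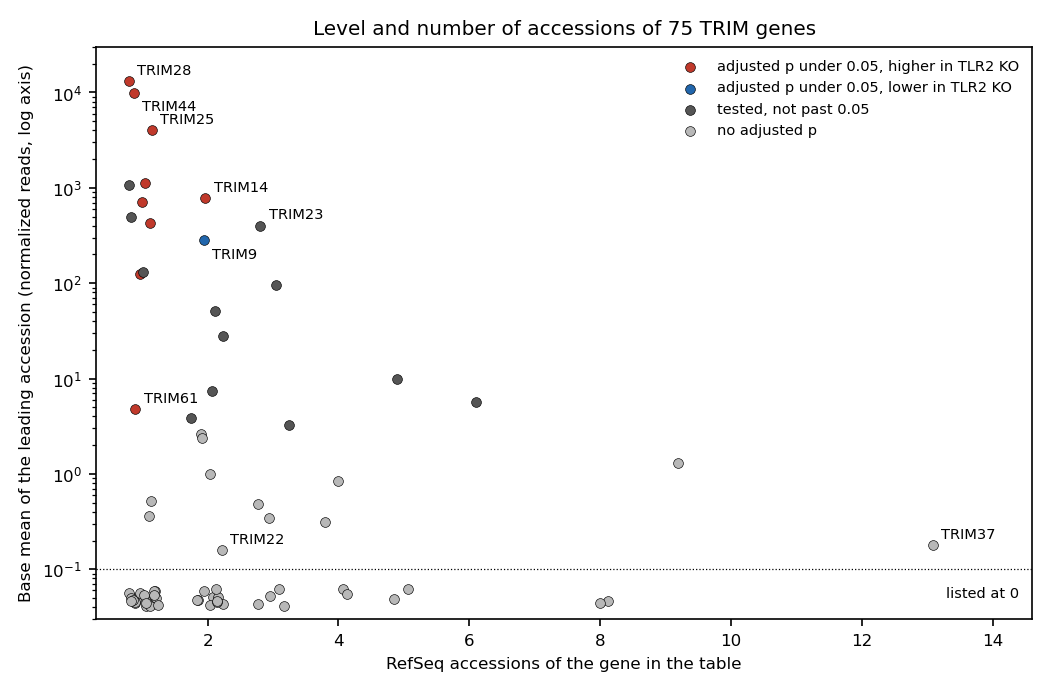
Base mean in normalized reads on a log axis against the number of RefSeq accessions for the 75 TRIM genes, with genes listed at 0 drawn below the dotted line and points spread sideways, and within the 0 band vertically, for visibility. The 10 called genes have 1 or 2 accessions, and TRIM37, with 13 accessions, has a base mean of 0.18.

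By class, 3 of 10 tested members with a PRY-SPRY domain were called higher in the authors' deposited table (TRIM25, TRIM38 and TRIM11) and 0 lower, with fold changes from -0.39 to 0.44 on the log2 scale. This 30% lies near the 27.6% of all tested protein-coding genes that were called. TRIM47, a further member of this class, was at 0.23 (adjusted p = 0.229, SE 0.13), TRIM68 at -0.24 (adjusted p = 0.671, SE 0.31) and TRIM62 at -0.39 (adjusted p = 0.507, SE 0.35) in the authors' deposited table. The span of TRIM62 overlaps ZNF362, which had a base mean of 107 and fell by 1.88 (adjusted p = 1.04e-12) in the authors' deposited table. The part of this overlap in the value of TRIM62 was not tested. Both tested members of the class without a C-terminal domain, TRIM56 and TRIM61, were called higher. So were both tested members of the class without a RING domain, TRIM14 and TRIM44, but each class held 2 tested genes. Each gene was counted in 1 class. Whether members of other classes also lack a RING domain was not examined, among them TRIM66 (-0.58, adjusted p = 0.0517, SE 0.23 in the authors' deposited table). TRIM14 also carries a PRY-SPRY domain and was counted with the RING-less members. Of 4 members with NHL repeats, 0 were tested.

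The genes that work with TRIM proteins were then examined by list. Of 16 tested genes of RNA sensing and interferon signalling, the authors' deposited table called 6 higher and 1 lower (43.8%), beside 27.6% of all tested protein-coding genes (13.4% higher, 14.2% lower), with a median log2 fold change of 0.33 beside 0.02. Of all protein-coding genes with a base mean of at least 100, 43.6% were called, 20.4% higher, and the list holds genes above and below that level. IFIH1, the RNA sensor MDA5, rose by 1.33 (adjusted p = 2.12e-20, SE 0.14) in the authors' deposited table. ISG15, a ubiquitin-like modifier, rose by 1.02 (adjusted p = 0.00263, SE 0.29), and the interferon receptor chain IFNAR1 fell by 0.41 (adjusted p = 1.51e-07, SE 0.07) in the authors' deposited table. IRF2 (0.35, adjusted p = 0.0155, SE 0.12) and USP18 (0.41, adjusted p = 0.0256, SE 0.15), which removes ISG15, also rose in the authors' deposited table. Of the 30 listed, 13 were at 0, among them CGAS and the adaptors MAVS, STING1 and TRAF6, which several TRIM ligases modify. Whether these genes were expressed, and whether they changed, cannot be judged from this table.

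Among 25 tested E2 conjugating enzymes, the authors' deposited table called 3 higher and 2 lower (20%, no more than the 27.6% of all tested protein-coding genes). UBE2E3 fell by 0.73 (adjusted p = 0.000317, SE 0.18) and UBE2V2, a partner of UBE2N in lysine-63 chains, fell by 0.34 (adjusted p = 0.00126, SE 0.09) in the authors' deposited table. CDC34 (0.30, adjusted p = 0.0123, SE 0.10), UBE2J1 (0.19, adjusted p = 0.0234, SE 0.07) and UBE2M (0.22, adjusted p = 0.0443, SE 0.08), the E2 enzyme of NEDD8, rose in the authors' deposited table. UBE2N was at 0.15 (adjusted p = 0.246, SE 0.09) in the authors' deposited table.

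Corepressor partners of TRIM28 had 0 of 10 tested members called by the DESeq2 Wald test of the authors' deposited table, beside 27.6% of all tested protein-coding genes. In the same test, 1 had an unadjusted p under 0.05, MPHOSPH8 (-0.30, adjusted p = 0.0546, SE 0.12). Only HDAC1 and MPHOSPH8 of the 10 had a base mean of at least 100, so the count does not show that the partners were unchanged. SETDB1, the H3K9 methyltransferase that TRIM28 recruits, had a base mean of 5.02 and a log2 fold change of -0.08 (adjusted p = 0.923, SE 0.35) in the authors' deposited table. These are values of 1 of its 5 accessions and do not give the level of the gene. Among 8 tested autophagy receptors and initiation genes, several of whose products bind TRIM proteins, the authors' deposited table called 1 higher and 3 lower (50% of 8, beside 27.6% of all tested protein-coding genes). All of the 8 but NBR1 had a base mean of at least 100, where 43.6% of all protein-coding genes were called. ULK1, the initiating kinase, fell by 0.50 (adjusted p = 6.32e-05, SE 0.11), GABARAP fell by 0.37 (adjusted p = 0.000128, SE 0.08) and MAP1LC3B fell by 0.36 (adjusted p = 0.00472, SE 0.11), while GABARAPL2 rose by 0.26 (adjusted p = 0.0172, SE 0.09) in the authors' deposited table.

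Of 8 tested TRIM-related genes with other symbols, the authors' deposited table called 2 higher and 0 lower (25%, near the 27.6% of all tested protein-coding genes). RFPL4A, of the RFPL group that shares the RING and SPRY arrangement and has close copies, rose by 1.99 (adjusted p = 2.18e-06, SE 0.38) at a base mean of 12.2, and CMYA5, a muscle protein with a SPRY domain, rose by 1.03 (adjusted p = 0.0317, SE 0.38) at a base mean of 10.5 in the authors' deposited table. PML, the TRIM protein of nuclear bodies, was at -0.13 (adjusted p = 0.546, SE 0.12), and MID1, a microtubule-bound TRIM protein, was at 0.06 (adjusted p = 0.937, SE 0.34) in the authors' deposited table.

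**Figure D5:**
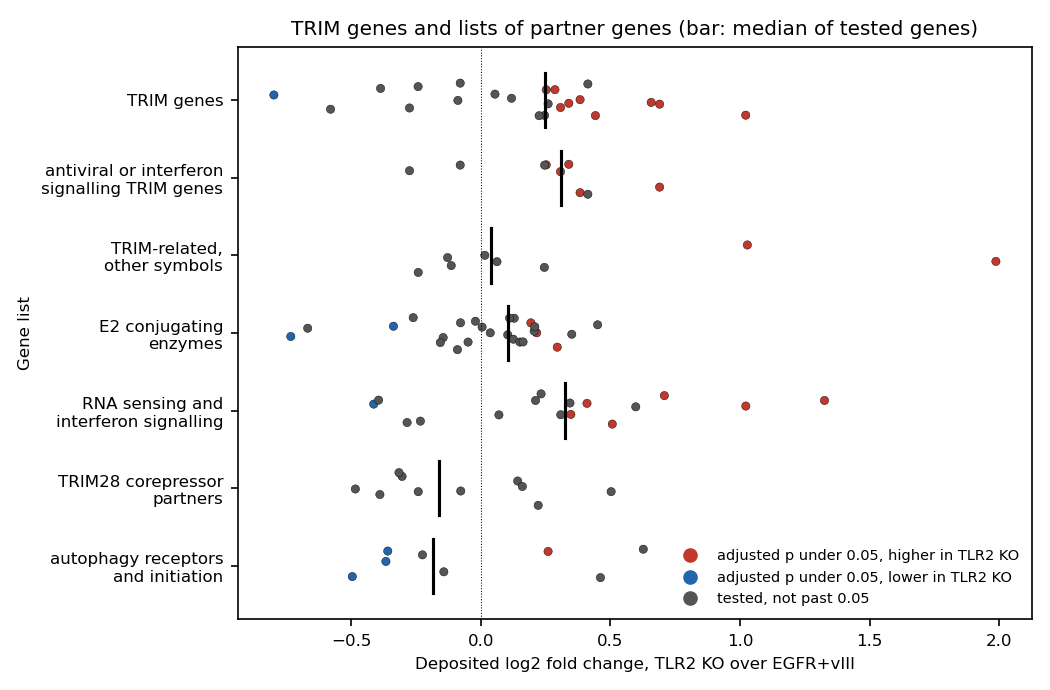
Deposited log2 fold changes, TLR2 KO over EGFR+vIII, of the tested members of the TRIM family and of 6 lists, 1 point per gene, with the median as a bar. The medians lie at 0.25 for the TRIM genes and 0.33 for RNA sensing and interferon signalling, and at -0.16 for TRIM28 corepressor partners and -0.18 for autophagy genes.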

How the data were processed

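U87 RNA was sequenced in 3 libraries per group, grouped by the cell type in the labels. The submitters' processing notes list STAR, DESeq2 and hg38; versions, counter, annotation, library kit and strandedness were not given in the sources used here, and the labels name a commercial kit for RNA extraction. Per the file headers, the authors deposited 1 comparison table of 67933 accessions with a base mean (a signal: mean of size-factor-normalized reads), a log2 fold change with its SE, a Wald score, a p-value and an adjusted p-value, which is given for 10303 accessions with a base mean of at least 3.11. The deposited Wald score equals fold change over SE within 5.39e-07. The planned count test needs a value per library and could not be run, so calls rest on the deposited adjusted p (under 0.05). The largest deposited SE was 0.38, which shows fold changes drawn towards 0. Missing adjusted p-values stayed missing. Accessions were matched to a RefSeq table of GRCh38.p14 (98.8% matched). With python 3.11.15, pandas 2.3.3, numpy 2.4.6 and scipy 1.17.1, the levels by group were computed from base mean and fold change, a 1.5-fold null, scaled scores and 20-neighbour medians were applied over all tested accessions or genes, and base means below 10 were resolved into whole reads per library. The 1.5-fold null, the scaled scores and the recovery of reads were tested on simulated data. The simulated fold changes were not drawn towards 0, so the simulation does not cover the 1.5-fold null for genes with few reads. Levels per kilobase used transcript lengths of GENCODE matched by accession. Named genes are all TRIM genes past the threshold, a fixed set of members, and at most 6 called genes a partner list. The values of 1 such gene are not reported here. Other genes named (among them RIGI, UBE2N, PML, MID1, SETDB1 and MPHOSPH8) were chosen after their values were seen. The members and lists were chosen with earlier results of these data known. The mean number of normalized reads counted in the table was 11240272 per library. Reads that were not counted are not in it, so it is not the sequencing depth.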

Additional observations from a re-analysis of the deposited data

How the results depend on the processing

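The counts of called genes and the fold changes of the 22 tested TRIM genes were recomputed under 9 alternatives, where an alternative kept the gene (13 at a base mean of at least 100, 11 with 1 accession, 21 with the accession of smallest p). Counts not given here stayed within 1.5 times the reported value. Motif counts, recovered reads, accession shares and chromosome 6 counts had no alternative. At an adjusted p under 0.01, 5 TRIM genes were higher (TRIM44, TRIM56, TRIM59 and TRIM61 were lost), and 1 TRIM-related gene, 2 E2 enzymes and 4 RNA sensing genes were called. Against a null of up to 1.5-fold the counts were 0 TRIM genes higher and 0 lower, 0 for PRY-SPRY, antiviral, E2 and autophagy genes, 1 TRIM-related gene and 1 RNA sensing gene. With scaled Wald scores they were 2 TRIM genes higher and 0 lower, 1 PRY-SPRY gene, 2 antiviral TRIM genes, 1 TRIM-related gene, 0 E2 enzymes, 3 RNA sensing genes and 0 autophagy genes. With no filter on low values, 1 TRIM-related gene was called and TRIM59 was lost. Among genes with a base mean of at least 100, 2 TRIM genes were lower (TRIM9 and TRIM66, adjusted p = 0.0282), with 0 TRIM-related genes and 1 TRIM28 partner called. Adjusted over 1 accession per gene, 2 TRIM genes were lower (TRIM66 at 0.0483). Relative to 20 neighbouring genes, 2 TRIM genes were lower, 1 PRY-SPRY and 3 antiviral genes were higher, and 2 E2 enzymes and 1 TRIM28 partner were called. TRIM28 and TRIM11 then lost the call, and TRIM38 (-0.052), TRIM7 (-0.25) and TRIM33 (-0.16) changed sign. Among genes with 1 accession, 0 TRIM genes were lower, since TRIM9 has 2. The cause of the other changes was not tested. No paired analysis was possible because the table holds no values per library, and leaving out replicates was not run for the same reason. The 9 tested TRIM genes below a base mean of 100 had wide intervals. The parts that depth and the counting of reads have in this were not tested.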

Other observations

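Among TRIM symbols that are not protein-coding, 2 of 6 in the authors' deposited table had reads. TRIM52-AS1, an antisense RNA on chromosome 5 with 4 accessions, had a base mean of 11.5 and a log2 fold change of 0.06 (adjusted p = 0.942, SE 0.38) in the authors' deposited table, while its partner TRIM52 was listed at 0 in 5 accessions.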
